A study of Arabidopsis thaliana with 32 samples.

Results

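The response to growth at 27°C that remained in the *pif4-2* mutant of Arabidopsis was read from 8 of the 32 RNA-seq libraries of the study, the 4 biological replicates of *pif4-2* at 27°C and the 4 at 20°C, over all genes of the deposited table. The study grew seedlings of the wild type Col-0 and of the mutants *pif4-2*, *hmr-22*, and *med14-2* for 96 h at 20°C or 27°C in continuous red (R) light (fluence rate 50 µmol m-2 s-1) to ask which warm-regulated genes need the transcription factor PIF4, its coactivator HMR, and the Mediator subunit MED14. The *pif4-2* line carries a T-DNA insertion (SAIL_1288_E07) in the Col-0 background, and the wild type Col-0 at the same temperatures (8 libraries) served as the reference for what differed. All seedlings, the wild type included, were grown at the stated temperature from the start, so the values compare seedlings raised warm with seedlings raised cool and do not follow a shift. Each library came from whole seedlings, so fewer cells of a type and less RNA per cell cannot be told apart.

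PIF4 is a basic helix-loop-helix transcription factor that binds G-box elements and drives hypocotyl and petiole elongation in warm seedlings, largely through auxin synthesis and response genes. Plants also respond to warmth through heat shock factors, which induce the chaperones that keep proteins folded, and through changes in growth, nutrient uptake, and defence compounds that do not all pass through PIF4. The warm response of a *pif4* mutant therefore shows which parts of the transcriptome still move when this factor is impaired.

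The FPKM values stood for 12762811 to 13097121 mapped fragments per *pif4-2* library at 20°C and 14171548 to 15703225 at 27°C. The share of these fragments in nuclear genes was 68.4 to 86.0% at 20°C and 91.6 to 96.1% at 27°C, which moves the FPKM of all genes of a library together. Each library was therefore divided by a factor from a trimmed mean of M values (TMM), 0.661 to 0.862 at 20°C and 1.05 to 1.13 at 27°C, and the levels given are these scaled FPKM unless deposited FPKM is named. *pif4-2* 27°C replicates 3 and 4 stood apart from replicates 1 and 2, with plastid genes summing to 597.2 and 961.9 deposited FPKM against 6284 and 3577, and the lowest correlation between replicates of this group was 0.966. Counts that matter are given also without replicates 3 and 4 and without replicates 1 and 2 of that group. Green tissue was well represented, as *RBCS1A*, a small subunit of Rubisco, and *LHCB1.3*, a chlorophyll-binding protein, had scaled means of 19982 ± 1604 to 15195 ± 905 and 12275 ± 1979 to 9465 ± 1621 (SD, n = 4) from 20°C to 27°C.

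*PIF4* itself (AT2G43010, TAIR10 chromosome 2, 17886101 to 17889087, plus strand) did not rise with warmth in the mutant. Its deposited FPKM was 5.47 ± 1.11 at 20°C and 5.63 ± 1.45 at 27°C (SD, n = 4), a difference well inside the spread (exact permutation test, two-sided, p = 0.857, with 0.0286 the smallest p that 4 against 4 allow). After scaling it was 6.08, 7.19, 8.0, and 6.14 at 20°C and 6.48, 6.59, 3.85, and 3.89 at 27°C, and the groups overlapped (exact permutation test, p = 0.171). Col-0 at 27°C had 18.9 ± 1.83 scaled FPKM, and all 4 *pif4-2* libraries at 27°C lay below all 4 of Col-0 (exact permutation test, p = 0.0286). Transcript was still counted in every *pif4-2* library, and gene sums do not show which side of the insertion it came from.

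A large warm response remained in *pif4-2*. Of 19417 genes tested with limma on log2(FPKM + 0.25), 873 (4.5%) were induced and 651 (3.35%) were repressed. These calls used the study's thresholds, namely 2-fold or more, Benjamini-Hochberg adjusted p below 0.001, and more than 1 deposited FPKM in the higher of both group means. The median log2 change was 1.37 among the induced, −1.34 among the repressed, and −0.02 over all tested genes. At least 4-fold changes were seen in 154 induced and 109 repressed genes, and at least 8-fold changes in 36 and 49. The repressed genes included 32 plastid-encoded and 16 mitochondrion-encoded genes, and the largest falls with a gene symbol were all plastid-encoded. The counts of strong falls are therefore not those of nuclear genes alone. All 4 libraries at 27°C lay above all 4 at 20°C in 868 of the 873 induced genes (18.9% of all tested genes did so), and all lay below in 648 of the 651 repressed genes (20.1% of all tested genes). Groups that do not overlap are thus nearly given for a called gene. Where this is stated below it describes the values and is no further support. Log2 changes are on the log2(FPKM + 0.25) scale, where the added constant draws the changes of weakly expressed genes toward 0, and each is given with its standard error.

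**Figure D1:**
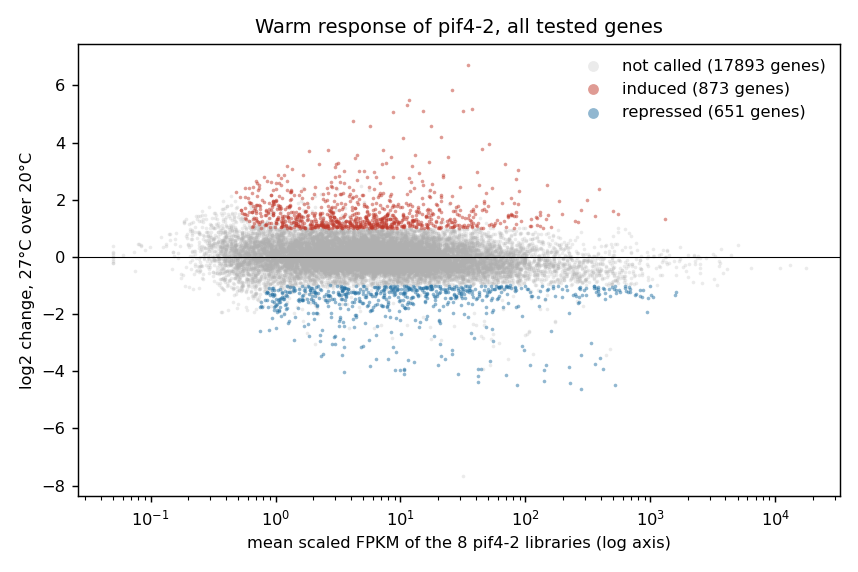
Log2 change from 20°C to 27°C in *pif4-2* (y axis) against the mean scaled FPKM of its 8 libraries (x axis, log scale) for the 19417 tested genes, 1 point a gene. Red points are the 873 induced genes, blue points the 651 repressed genes, and grey points were not called. The called genes lie on both sides of 0 over a wide range of levels, with the largest rise at 6.73. The lowest called change, −4.61, is that of the plastid-encoded *ATPH*.

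The split between both directions depended on the scaling. With FPKM as deposited, 2568 genes were induced and 207 repressed, and the log2 change of the median gene lay higher by 0.446. All 873 induced genes were also induced on that scale, and 207 of the 651 repressed genes were also repressed, so directions are relative to the median gene. Without *pif4-2* 27°C replicates 3 and 4 the counts were 633 induced and 644 repressed, and without replicates 1 and 2 they were 994 and 591.

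In Col-0 the same rule called 567 genes induced (2.92%) and 787 repressed (4.05%), and 265 of the induced and 384 of the repressed were shared with *pif4-2*. The difference of the responses was tested as an interaction. At an adjusted p under 0.05 the response was higher in *pif4-2* than in Col-0 for 1167 genes (6.01%) and lower for 683 (3.52%). Of the 873 genes induced in *pif4-2*, 314 rose more than in Col-0, 11 rose less, and for 548 no difference was called. Of the 651 repressed genes, 78 fell more than in Col-0, 16 fell less, and 557 had no called difference. Both sets were selected by their change in the same *pif4-2* libraries, which tilts these splits toward a stronger response in *pif4-2*. A missing call does not show that the responses were alike. The counts of differences depended on the fit. They were 308 and 188 with all 32 libraries in it, 2812 and 1979 with library weights, 615 and 429 without *pif4-2* 27°C replicates 3 and 4, and 2099 and 1629 without replicates 1 and 2, and the count of lower responses was 413 without Col-0 27°C replicate 4.

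The groups of genes that rose and fell were of different kinds. Of 34 lists of nuclear genes, those with the most induced members for their size were small heat shock proteins (8 of 11 tested), glucosinolate synthesis (15 of 30), heat shock factors and large chaperones (8 of 21), and detoxification (12 of 32), against 4.5% of all genes. Those with the most repressed members were root hair (13 of 18), the Casparian strip of the endodermis (4 of 8), cold response (5 of 14), nitrate and ammonium (5 of 14), iron uptake (11 of 31), and flavonoids (6 of 18), against 3.35% of all genes. The lists were chosen with results of these data known, so their counts describe these members and were not tested as sets.

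**Figure D2:**
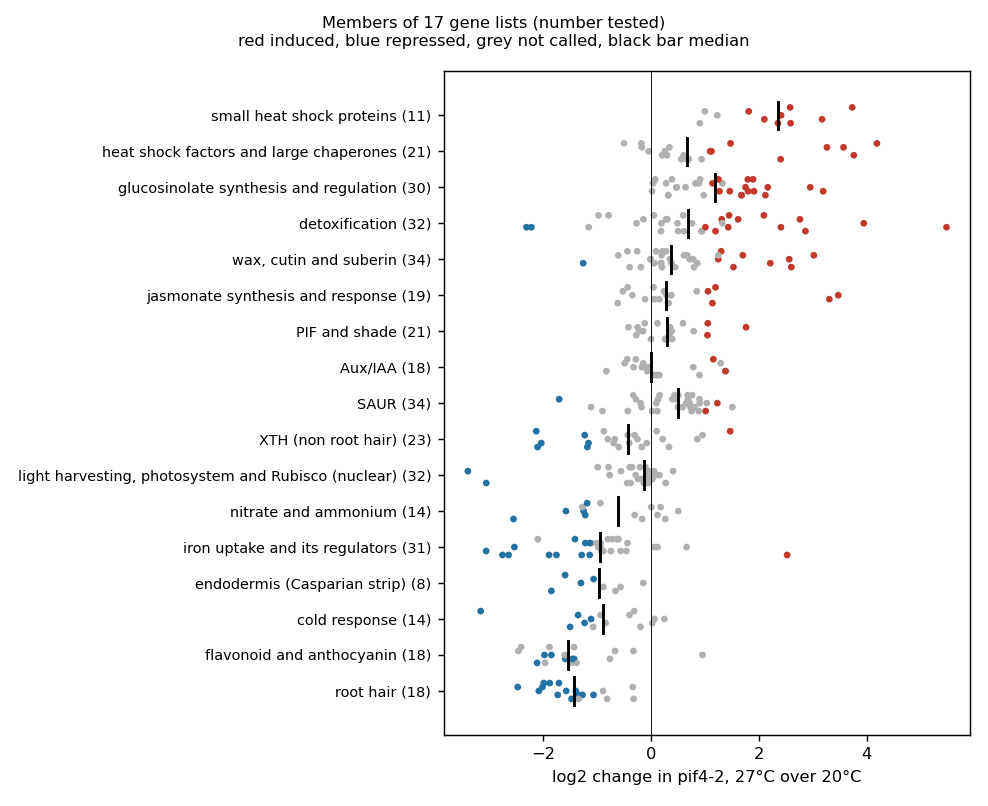
Log2 change from 20°C to 27°C in *pif4-2* (x axis) of each tested member of 17 gene lists (rows, with the number tested). Points are genes, red if induced, blue if repressed, and grey if not called, and the black bar is the list's median. The medians run from 2.35 for small heat shock proteins to −1.53 for flavonoids and anthocyanins.

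Chaperone genes rose in *pif4-2* at 27°C. *HSP90-1* (AT5G52640, TAIR10 chromosome 5, 21352557 to 21355147, plus strand), which encodes the heat-inducible cytosolic HSP90, had scaled FPKM of 2.11, 2.91, 1.29, and 1.72 at 20°C and 36.2, 30.8, 48.0, and 45.5 at 27°C. All warm libraries lay far above all cool ones (log2 change 4.19 ± 0.19, adjusted p = 2.66e-11). Listed as *MED37C* (AT3G12580, TAIR10 chromosome 3, 3991117 to 3993886, minus strand), a heat-inducible cytosolic HSP70 gene had 4.88, 6.36, 6.28, and 6.33 at 20°C and 78.4, 71.6, 96.5, and 89.6 at 27°C (log2 change 3.76 ± 0.21, adjusted p = 1.11e-09). *ROF2*, which encodes an immunophilin that works with HSP90, had 1.22, 1.08, 1.01, and 1.23 at 20°C and 11.7, 11.4, 15.2, and 14.1 at 27°C (log2 change 3.26 ± 0.19, adjusted p = 4.79e-10). *MBF1C*, a transcriptional coactivator needed for heat tolerance, had 1.55, 1.62, 2.42, and 1.80 at 20°C and 20.5, 23.57, 27.3, and 26.54 at 27°C (log2 change 3.57 ± 0.17, adjusted p = 2.68e-11). The groups did not overlap in any of these 4 genes.

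The small heat shock proteins, which hold unfolding proteins in solution, rose from low levels, and 8 of 11 were called. The mitochondrial *HSP23.5* had 0.420, 0.874, 0.522, and 1.54 at 20°C and 11.5, 8.46, 17.2, and 17.83 at 27°C (log2 change 3.73 ± 0.31, adjusted p = 1.55e-07). The class II gene *HSP17.6II* was listed at 0 in 3 of the 4 libraries at 20°C and had 1.79, 1.21, 4.42, and 2.35 at 27°C (log2 change 3.171 ± 0.32, adjusted p = 3.87e-07). The class I gene *HSP17.8* had 0.546, 0.722, 1.24, and 0.739 at 20°C and 5.75, 4.29, 5.13, and 9.98 at 27°C (log2 change 2.59 ± 0.26, adjusted p = 4.17e-07). *HSP17.7* was listed at 0 in all 4 libraries at 20°C and had 1.04, 1.06, 0.640, and 1.82 at 27°C, so no fold is given, and its call was lost without 27°C replicate 4, where the warm mean no longer passed 1 FPKM (adjusted p = 0.000144). All 11 tested small heat shock protein genes had a positive log2 change, the lowest 0.91, and the median was 2.35 against −0.02 for all genes. Of the 14 members listed, *HSP21*, *HSP22.0*, and *HSP26.5* did not pass the filter on low values and were not tested. Members at or near 0 at 20°C, such as *HSP17.7* and *HSP17.6II*, passed it only through warm libraries, so their sign was fixed in advance. The summed level of the list was 7.01 to 12.7 at 20°C and 36.6 to 66.3 at 27°C, which is still low beside single chaperone genes such as *HSC70-1*, a constitutive HSP70 with 667 ± 62.4 to 588 ± 25.9 scaled FPKM. The list had 4 induced members without 27°C replicates 3 and 4 and 7 without replicates 1 and 2.

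Of the 21 factors and large chaperones, 8 were induced. The heat shock factor gene *HSFA2*, which amplifies the heat response, stayed low, with 0, 0.236, 0.259, and 0.338 at 20°C and 0.841, 0.891, 1.2, and 0.949 at 27°C (log2 change 1.48 ± 0.27, adjusted p = 0.000211), and its call was lost without 27°C replicate 3 (log2 change 1.38, adjusted p = 0.00107). The cool values of *HSFA2* alone would not have passed the filter, so its sign too was fixed in advance. *GOLS1*, a galactinol synthase gene, had 1.26, 0.636, 0.628, and 0.716 at 20°C and 6.94, 5.19, 4.34, and 4.71 at 27°C (log2 change 2.4 ± 0.24, adjusted p = 2.88e-07). Constitutive chaperones did not pass the test, with log2 changes of −0.18 for *HSC70-1* and −0.04 for *HSP60*, a mitochondrial chaperonin gene. For *HSP90-1*, *MBF1C*, *DREB2A*, and *HSP17.8* the response was higher than in Col-0. The *MBF1C* level went from 2.1 ± 0.663 to 9.46 ± 0.970 in Col-0 (difference 1.48 ± 0.24, adjusted p = 0.000838). For *HSP90-1* it went from 3.38 ± 0.407 to 26.55 ± 5.35 in Col-0 (difference 1.31 ± 0.27, adjusted p = 0.0046). For *HSP17.8* the values were 0.732 ± 0.185 to 2.0 ± 0.761 (difference 1.43 ± 0.37, adjusted p = 0.0204). *DREB2A*, a drought and heat factor gene, was not called in *pif4-2* itself (log2 change 0.61, difference 0.87 ± 0.27, adjusted p = 0.0481).

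The binding motif of heat shock factors is built from GAA repeats in alternating direction. A strict form with 3 repeats (GAANNTTCNNGAA, searched on both strands) was looked for in the 300 bases from 250 before to 50 after each annotated start, in the RefSeq TAIR10.1 sequence. It was present in 0.478% of 27426 nuclear genes, in 1.26% of the 873 induced genes, in 0.166% of 603 repressed nuclear genes, and in 31.2% (5 of 16) of the induced members of the heat lists. Among 16 tested members of the heat lists that were not called, 12.5% held it. Of the induced members with values given above, *HSP90-1*, *ROF2*, *MBF1C*, *HSP23.5*, *HSP17.6II*, *HSP17.8*, and *HSP17.7* held no match. The 30-base windows of the 5 induced genes that hold the element are shown, with the element in capitals, written 5′ to 3′ on the gene's strand:
MED37C (chr3:3993845-3993874, minus strand): ttactcgtGAACGTTCTCGAAagctctttg
HSP17.4 (chr3:16984945-16984974, minus strand): tcaacataGAAGCTTCTTGAAgccacctga
HSP17.4 (chr3:16984864-16984893, minus strand): agaaacctGAAATTTCAAGAAacttgcaga
GOLS1 (chr2:19370557-19370586, minus strand): gtcccactTTCCAGAACTTTCacggtttca
HSP17.6C (chr1:19980238-19980267, plus strand): caacaccaGAAACTTCTTGAAagcacctga
HSFA2 (chr2:11135528-11135557, plus strand): ttagtaacGAAGTTTCTGGAAcattgtctt
In GOLS1 the element lies on the other strand and so reads as its reverse complement. The elements start 99 and 18 bases before the start of HSP17.4, 100 before GOLS1, 53 before HSP17.6C, and 88 before HSFA2, and at base 21 after the start in MED37C. A match describes letters in this window and does not show binding.

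Windows were printed for induced genes only, and the class I genes *HSP17.4* and *HSP17.6C* were among them. *HSP17.4* had 0, 0, 0.129, and 0.242 at 20°C and 1.23, 0.803, 2.63, and 3.06 at 27°C (log2 change 2.58 ± 0.38, adjusted p = 2.43e-05). *HSP17.6C*, named because its window is shown, had 0, 0, 0, and 0.101 at 20°C and 0.438, 1.26, 1.63, and 0.701 at 27°C (log2 change 2.1 ± 0.33, adjusted p = 3.88e-05), and its call was lost without 27°C replicate 3 (log2 change 1.87, adjusted p = 0.000236), where the warm mean no longer passed 1 FPKM. Without *pif4-2* 27°C replicates 3 and 4, *HSP17.4* also lost its call, and its highest values were in those libraries. With voom on recovered fragments its call was lost too.

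**Figure D3:**
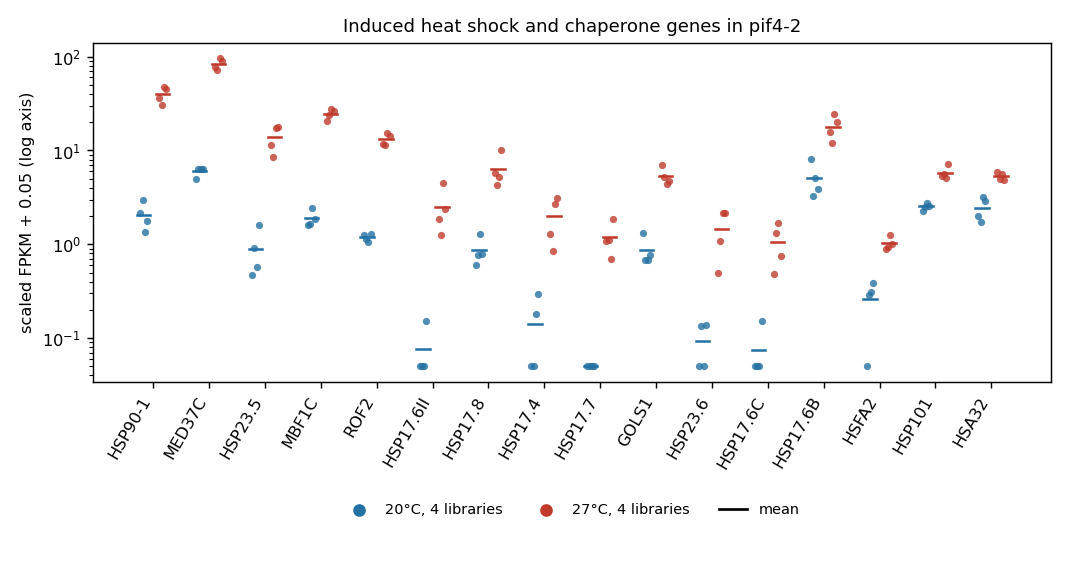
Scaled FPKM plus 0.05 (y axis, log scale) of the 16 induced heat shock and chaperone genes in *pif4-2* (x axis), with 4 libraries at 20°C in blue, 4 at 27°C in red, and bars at the group means. The red points lie above the blue points for each of these genes, from *HSP17.6II* near 0 at 20°C to *MED37C* at 71.6 to 96.5 at 27°C.

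Genes of aliphatic glucosinolate synthesis rose together. Glucosinolates are sulfur-rich defence compounds of the cabbage family, and the aliphatic ones are made from methionine by chain elongation, core synthesis, and side-chain modification. Of 30 tested members of the list 15 were induced, with a median log2 change of 1.196, and all 30 log2 changes were positive. Without 27°C replicates 3 and 4 the count was 11, and without replicates 1 and 2 it was 17.

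In chain elongation, *BCAT4* (AT3G19710, TAIR10 chromosome 3, 6846969 to 6849582, minus strand), the aminotransferase of the first step, had scaled FPKM of 7.66, 14.7, 7.56, and 7.62 at 20°C and 52.6, 79.1, 75.9, and 81.6 at 27°C (log2 change 2.95 ± 0.19, adjusted p = 4.81e-09). *MAM1*, a methylthioalkylmalate synthase gene, had 5.93, 16.4, 8.43, and 9.19 at 20°C and 35.1, 46.3, 40.1, and 45.4 at 27°C (log2 change 2.12 ± 0.23, adjusted p = 1.62e-06). In both genes replicate 2 was the highest of the cool libraries and still lay below all warm ones.

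In core synthesis, *CYP79F1*, the cytochrome P450 that turns chain-elongated methionine into aldoximes, had 1.75, 5.44, 1.75, and 1.25 at 20°C and 18.0, 25.7, 21.2, and 23.0 at 27°C (log2 change 3.19 ± 0.31, adjusted p = 1.22e-06). *CYP83A1*, which acts on those aldoximes, had 15.3, 30.4, 18.21, and 16.9 at 20°C and 59.9, 82.6, 72.6, and 78.7 at 27°C (log2 change 1.89 ± 0.16, adjusted p = 6.7e-08). *GSTU20*, a glutathione transferase gene of the pathway, had 115, 171, 142, and 158 at 20°C and 243, 392.2, 381, and 414 at 27°C (log2 change 1.27 ± 0.19, adjusted p = 4.16e-05). For the side chain, *FMOGS-OX1*, an S-oxygenase gene, had 0.405, 1.69, 1.01, and 0.889 at 20°C and 3.79, 6.25, 4.98, and 5.10 at 27°C (log2 change 2.17 ± 0.25, adjusted p = 1.98e-06). Again 20°C replicate 2 was the highest cool library in each of these 4 genes, and the groups did not overlap.

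Genes of the indole branch, which starts from tryptophan, were mostly not called. *CYP83B1*, the indole counterpart of *CYP83A1*, went from 47.9 ± 3.71 to 59.8 ± 2.13 and was not called (log2 change 0.32). *SOT16*, a sulfotransferase gene of that branch, went from 33.1 ± 2.96 to 41.3 ± 2.75 (log2 change 0.32). *CYP79B2* and *CYP79B3*, which make indole aldoxime, had log2 changes of 0.02 and 0.28. An exception was *IGMT1*, an indole glucosinolate methyltransferase gene, with 2.42, 2.29, 1.82, and 1.58 at 20°C and 14.3, 5.50, 7.27, and 5.73 at 27°C (log2 change 1.80 ± 0.25, adjusted p = 1.89e-05). Of the regulators of the aliphatic branch, *MYB29* was induced (log2 change 1.75 ± 0.24, adjusted p = 1.39e-05) and *MYB28* was not (log2 change 0.08). The last 5 genes were named after their values were seen.

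The rise of these genes was larger in *pif4-2* than in Col-0, and it started from a lower level. The interaction was positive for 15 of the 30 tested members, against 6.01% of all genes, and negative for 1, the indole regulator gene *MYB51* (difference −1.21 ± 0.22, adjusted p = 0.0023). This list too was chosen with results of these data known, so the share is no independent support. *CYP79F1* went from 14 ± 1.45 to 21.3 ± 5.70 in Col-0 (difference 2.63 ± 0.44, adjusted p = 0.00189). *MAM1* went from 40.2 ± 3.80 to 48.1 ± 12.3 (difference 1.89 ± 0.32, adjusted p = 0.0017), and *CYP83A1* from 57.4 ± 5.12 to 69.0 ± 7.65 (difference 1.63 ± 0.23, adjusted p = 0.00029). At 20°C the *pif4-2* means of these 3 genes lay below those of Col-0, while at 27°C they lay close to them.

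**Figure D4:**
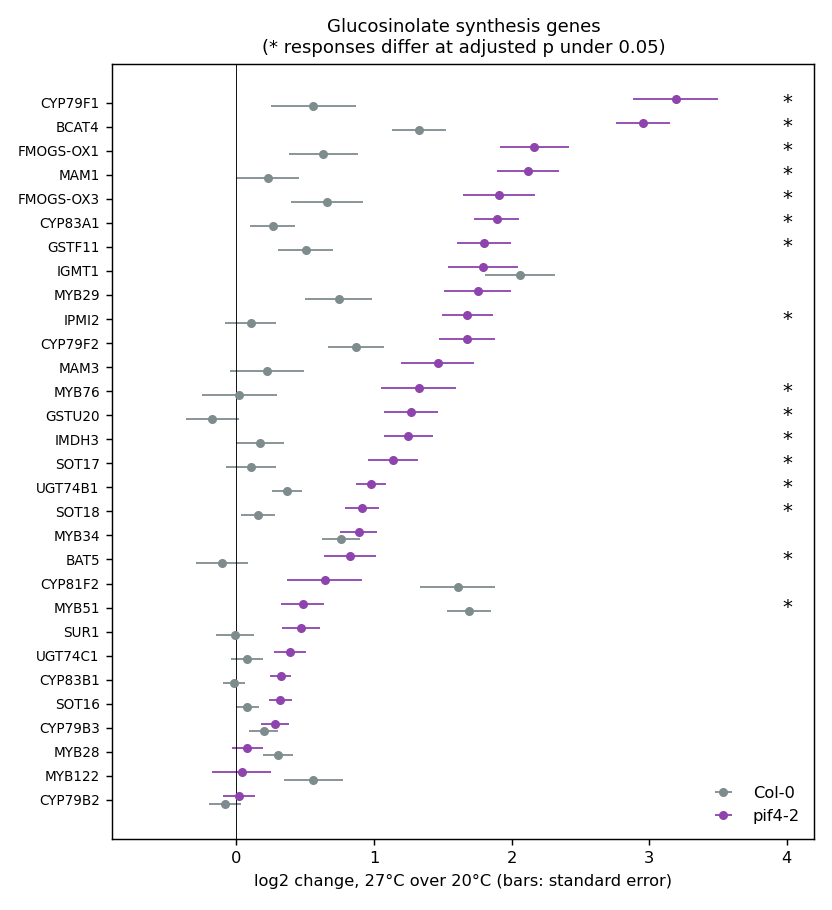
Log2 change from 20°C to 27°C (x axis) with its standard error for the 30 tested glucosinolate synthesis genes (rows), in *pif4-2* (purple) and Col-0 (grey). An asterisk marks genes whose responses differ at an adjusted p under 0.05. All 30 purple points lie above 0, up to 3.19 for *CYP79F1*.

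Genes that break glucosinolates down moved in both directions. *TGG2*, a myrosinase gene, had 55.5, 56.9, 46.5, and 51.5 at 20°C and 132, 131, 98.3, and 103 at 27°C (log2 change 1.13 ± 0.12, adjusted p = 4.34e-07). *ESP*, whose product steers breakdown toward nitriles and epithionitriles, had 6.49, 4.53, 5.23, and 6.44 at 20°C and 9.77, 14.4, 15.2, and 15.69 at 27°C (log2 change 1.23 ± 0.19, adjusted p = 3.23e-05). *NSP3*, a nitrile-specifier protein gene, had 7.80, 8.62, 8.39, and 10.5 at 20°C and 0.724, 0.698, 0.851, and 0.833 at 27°C (log2 change −3.14 ± 0.13, adjusted p = 1.12e-11). *ESM1*, a modifier of that step, had 148, 136, 104, and 127 at 20°C and 25.8, 41.1, 41.3, and 46.0 at 27°C (log2 change −1.75 ± 0.15, adjusted p = 6.92e-08). The groups overlapped in none of the 4. The more abundant myrosinase gene *TGG1* went from 530.3 ± 28.1 to 878 ± 112, less than 2-fold, and was not called at the study's fold (log2 change 0.72 ± 0.11, adjusted p = 3e-05).

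Detoxification genes held the largest rise of any list member. *AKR4C9* (AT2G37770, TAIR10 chromosome 2, 15834766 to 15837001, plus strand), an aldo-keto reductase that reduces reactive carbonyls, had 0.158, 0.0596, 0.392, and 0.610 at 20°C and 29.4, 17.3, 24.3, and 21.3 at 27°C (log2 change 5.48 ± 0.29, adjusted p = 2.14e-10). Its cool values alone would not have passed the filter on low values, so its sign was fixed in advance. *UGT75B1*, a glucosyltransferase gene, had 4.93, 6.51, 6.09, and 6.11 at 20°C and 104, 66.5, 110.1, and 103 at 27°C (log2 change 3.94 ± 0.18, adjusted p = 2.68e-11). *AKR4C8*, a further aldo-keto reductase gene, had 3.51, 5.26, 5.83, and 6.26 at 20°C and 37.9, 35.1, 43.2, and 39.1 at 27°C (log2 change 2.86 ± 0.13, adjusted p = 1.98e-11). In these 3 genes the warm libraries lay far above the cool ones. *UGT74E2*, whose product glucosylates indole-3-butyric acid, had 1.67, 3.23, 2.93, and 2.94 at 20°C and 18.3, 9.64, 25, and 30.7 at 27°C (log2 change 2.76 ± 0.30, adjusted p = 1.98e-06). *CYP81D11*, a P450 gene induced by xenobiotics, had 12.7, 14.3, 21.2, and 17 at 20°C and 148, 64.7, 76.4, and 74.7 at 27°C (log2 change 2.41 ± 0.24, adjusted p = 1.13e-06). None of these 5 genes overlapped between temperatures, and *CYP81D11* was highest in 27°C replicate 1.

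In all, 12 of 32 tested detoxification genes were induced and 2 repressed. Those that fell were the glutathione transferase genes *GSTU25*, with 23.2, 38.2, 35.6, and 40.6 at 20°C and 4.14, 6.39, 8.22, and 8.65 at 27°C (log2 change −2.31 ± 0.22, adjusted p = 3.97e-07), and *GSTU22*, with 32.9 ± 6.06 to 7.78 ± 4.0 (log2 change −2.22 ± 0.37, adjusted p = 0.000249), whose call was lost without 20°C replicate 4 (log2 change −2.12, adjusted p = 0.00104). *GSTU19*, the most abundant of the members not called, went from 635 ± 49.0 to 894 ± 85.2 (log2 change 0.49). Without 27°C replicates 3 and 4, 8 members were induced.

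In Col-0, 3 of these 32 genes were induced and 5 repressed. The interaction was positive for 15 of the 32 members, against 6.01% of all genes. The list was chosen with results of these data known, so this share describes its members and is no independent support. *UGT74E2* went from 3.24 ± 0.625 to 1.69 ± 0.589 in Col-0 (difference 3.64 ± 0.43, adjusted p = 9.29e-05). *AKR4C9* went from 0.201 ± 0.162 to 2.52 ± 0.205 (difference 2.78 ± 0.41, adjusted p = 0.00039), and *UGT75B1* from 7.39 ± 1.6 to 20.1 ± 4.3 (difference 2.53 ± 0.25, adjusted p = 2.18e-05). The TGA factor core TGACG, searched on both strands, was in the 300-base start windows of 7 of the 12 induced members (58.3%), of 7 of 18 members not called (38.9%), and of 23.7% of all tested genes. These shares describe letters near the start and are not tests.

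Genes outside the list rose with a like pattern. *CYP72A8*, a P450 gene, had 1.36, 0.645, 0.848, and 0.792 at 20°C and 23.3, 16.5, 22.1, and 18.7 at 27°C (log2 change 4.16 ± 0.19, adjusted p = 1.98e-11). *UGT73C1*, a glucosyltransferase gene, had 0.762, 1.57, 0.862, and 1.77 at 20°C and 15.1, 8.67, 15.2, and 17.5 at 27°C (log2 change 3.29 ± 0.24, adjusted p = 1.24e-08). *cPT4*, a cis-prenyltransferase gene, had 2.73, 3.53, 4.31, and 4.3 at 20°C and 45.8, 35.7, 50.2, and 45.0 at 27°C (log2 change 3.49 ± 0.19, adjusted p = 4.54e-10). All 3 rose more than in Col-0, by log2 differences of 1.70, 1.91, and 2.77.

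Jasmonate-responsive storage protein genes rose, while most of the jasmonate list was not called. *VSP2* (AT5G24770, TAIR10 chromosome 5, 8500468 to 8502224, minus strand), a vegetative storage protein gene, had 2.39, 2.34, 3.07, and 3.11 at 20°C and 17, 26.3, 32.9, and 48.1 at 27°C (log2 change 3.31 ± 0.22, adjusted p = 4.39e-09). *VSP1* had 0.262, 0.397, 0.290, and 0.135 at 20°C and 1.47, 4.50, 5.44, and 22.2 at 27°C (log2 change 3.47 ± 0.58, adjusted p = 0.000176) with a wide spread among its warm libraries. Its cool values alone would not have passed the filter on low values, so its sign was fixed in advance. The call of *VSP1* was lost with voom on recovered fragments, with a pseudocount of 1 FPKM, and with the *pif4-2* libraries alone. *CORI3*, an aminotransferase gene induced by jasmonate, had 0.203, 0.920, 0.294, and 0.196 at 20°C and 4.07, 4.78, 4.91, and 9.90 at 27°C (log2 change 3.28 ± 0.31, adjusted p = 2.43e-07). *BGLU18*, a beta-glucosidase of the endoplasmic reticulum, had 12.6, 13.2, 11.2, and 13.2 at 20°C and 99.8, 132, 108, and 158 at 27°C (log2 change 3.26 ± 0.15, adjusted p = 2.68e-11). The temperatures did not overlap in any of the 4 genes, and replicate 4 was the highest warm library in all of them.

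Of 19 tested members of the jasmonate list, 5 were induced, against 4.5% of all genes. *JAZ6* and *JAZ9* encode repressors of jasmonate signalling. *JAZ6* went from 5.21 ± 0.585 to 12.5 ± 2.84 (log2 change 1.2 ± 0.13, adjusted p = 1.2e-06). *JAZ9* went from 8.44 ± 1.51 to 18.197 ± 5.31 (log2 change 1.06 ± 0.21, adjusted p = 0.00041), and its call was lost without 20°C replicate 1, 20°C replicate 2, 20°C replicate 3, 27°C replicate 3, or 27°C replicate 4 (log2 change 0.91 to 1.09, adjusted p = 0.00112 to 0.00203). *AOC1*, an allene oxide cyclase gene of jasmonate synthesis, went from 8.91 ± 1.69 to 19.9 ± 3.81 (log2 change 1.14 ± 0.16, adjusted p = 1.81e-05). *LOX2*, a lipoxygenase gene of synthesis, went from 73.7 ± 16.2 to 136 ± 43.4 and was not called (log2 change 0.85 ± 0.21, adjusted p = 0.00288). The list had 3 induced members without 27°C replicates 3 and 4 and 6 without replicates 1 and 2. None of the 17 tested salicylic acid and defence genes and none of the 11 tested abscisic acid genes was called by limma or by voom on recovered fragments. At an unadjusted p under 0.05 in limma, 5 salicylic acid genes were higher and 2 lower, and 5 abscisic acid genes were higher and 2 lower.

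Genes of wax, cutin, and suberin synthesis rose in part. The list covers the cuticle, the layer of wax and cutin over the shoot, and also suberin. Of its 34 tested members 8 were induced and 1 was repressed, against 4.5% and 3.35% of all genes, so the repressed share lay near that of all genes. *DCR*, an acyltransferase gene of cutin synthesis, had 4.93, 5.0, 4.64, and 5.30 at 20°C and 30.9, 35.0, 26.6, and 30.2 at 27°C (log2 change 2.56 ± 0.12, adjusted p = 1.98e-11). *CER1*, needed for wax alkanes, had 0.814, 1.48, 0.811, and 0.631 at 20°C and 10.9, 10.9, 6.57, and 8.51 at 27°C (log2 change 3.02 ± 0.19, adjusted p = 1.79e-09). *KCS12*, a fatty acid elongase gene, had 0.572, 0.433, 0.751, and 1.44 at 20°C and 6.37, 5.20, 5.54, and 5.92 at 27°C (log2 change 2.60 ± 0.23, adjusted p = 9.3e-08). The groups did not overlap, and the regulator of wax synthesis *MYB96* rose with them, from 1.88 ± 0.161 to 6.71 ± 0.699 (log2 change 1.70 ± 0.14, adjusted p = 2.28e-08). *CER6*, the most abundant member of the list, went from 89.7 ± 5.89 to 137 ± 11.5, less than 2-fold (log2 change 0.61 ± 0.14, adjusted p = 0.00105). *CER4*, a fatty acyl reductase gene, was the repressed one, from 3.01 ± 0.501 to 1.15 ± 0.442 (log2 change −1.26 ± 0.23, adjusted p = 0.000235), and its call was lost without 20°C replicate 1, 20°C replicate 3, or 27°C replicate 2 (log2 change −1.21 to −1.13, adjusted p = 0.00103 to 0.00125).

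Part of the response that the wax, cutin, and suberin list had in Col-0 was smaller or missing in the mutant. *FAR1*, which makes fatty alcohols, went from 1.34 ± 0.277 to 4.31 ± 0.667 in *pif4-2* and from 1.13 ± 0.350 to 21.8 ± 4.36 in Col-0 (difference −2.49 ± 0.26, adjusted p = 2.41e-05). *KCS12* also rose less than in Col-0, where it went from 0.613 ± 0.119 to 11.4 ± 3.29 (difference −1.12 ± 0.33, adjusted p = 0.0382). *MAH1*, a midchain alkane hydroxylase gene, was listed at 0 in all 8 *pif4-2* libraries and reached a mean of 1.42 scaled FPKM at 27°C in Col-0. It passed the filter on low values only through Col-0 libraries.

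Several of the largest rises sat in a cluster on chromosome 4. Of the neighbouring genes AT4G22485, AT4G22490, AT4G22505, AT4G22513, AT4G22517, and AT4G22520, annotated by RefSeq as members of the lipid transfer protein and 2S albumin superfamily, each rose, with log2 changes of 5.06 to 5.83. AT4G22517 had 1.32, 1.57, 0.157, and 0.292 at 20°C and 54.5, 50.3, 42.5, and 55.0 at 27°C (log2 change 5.83 ± 0.50, adjusted p = 9.12e-07). AT4G22490 had 2.84, 3.5, 0.372, and 1.97 at 20°C and 86.4, 74.9, 56.5, and 74.8 at 27°C (log2 change 5.18 ± 0.51, adjusted p = 3.84e-06). The temperatures were far apart in each gene, and the cool libraries replicate 1 and 2 were higher than 3 and 4 in AT4G22517. These genes were named after their values were seen, and near-identical copies could share reads, so values of single members are uncertain. The single largest rise was that of AT3G05727 on chromosome 3, with 0.453, 1.03, 0.188, and 0.175 at 20°C and 87.4, 58.3, 59.6, and 68.5 at 27°C (log2 change 6.73 ± 0.38, adjusted p = 1.07e-08), which rose more than in Col-0 (difference 1.89 ± 0.54, adjusted p = 0.043). The cluster also rose in Col-0, with log2 changes of 2.70 to 4.04, and of its genes the response differed between the genotypes for AT4G22517 alone (difference 2.53 ± 0.71, adjusted p = 0.0406).

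Cold-response genes fell. *KIN1* (AT5G15960, TAIR10 chromosome 5, 5209717 to 5210826, plus strand), a small hydrophilic protein induced by cold and abscisic acid, had 7.20, 4.59, 6.32, and 8.09 at 20°C and 0.555, 0.323, 0.340, and 0.901 at 27°C (log2 change −3.16 ± 0.24, adjusted p = 1.12e-08). *KIN2* had 101, 49.8, 54.5, and 62.5 at 20°C and 32.1, 23.0, 17.76, and 19.9 at 27°C (log2 change −1.50 ± 0.22, adjusted p = 4.42e-05). *COR413-PM1*, a cold-regulated plasma membrane protein gene, had 375, 334, 459, and 465 at 20°C and 206, 151, 143, and 141 at 27°C (log2 change −1.35 ± 0.15, adjusted p = 1.2e-06). *COR27* and *RD29A* fell with them, with log2 changes of −1.23 and −1.11. AT4G30650, named after its values were seen and annotated as a member of a low temperature and salt responsive protein family, had 224, 174, 149, and 156 at 20°C and 16.9, 19.7, 17.67, and 17.37 at 27°C (log2 change −3.26 ± 0.13, adjusted p = 1.12e-11). The groups did not overlap in these genes.

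Not all of the regulon moved. Of 14 tested members 5 were repressed, and *COR15A*, a chloroplast protein gene of the same regulon, was not called (log2 change −0.19), nor was the dehydrin gene *COR47* (log2 change 0.02). On deposited FPKM, only *KIN1* and *KIN2* of the list were called. The interaction was called for 1 of the 14 genes, the dehydrin gene *LTI30*, which was not called in *pif4-2* and fell more in Col-0 (difference 1.35 ± 0.24, adjusted p = 0.00196), and the median log2 change was −0.89 in *pif4-2* and −1.02 in Col-0.

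Genes of roots fell in several lists. Root hairs are outgrowths of single epidermal cells that take up water and ions, and all 18 tested members of the root hair list had a negative log2 change, with 13 repressed and a median of −1.43. *PRP1*, a proline-rich cell wall protein gene, had 5.97, 6.84, 11.2, and 4.82 at 20°C and 2.39, 0.390, 1.23, and 0.837 at 27°C (log2 change −2.47 ± 0.33, adjusted p = 1.56e-05). *RHS15* had 2.48, 1.56, 2.06, and 1.97 at 20°C and 0.476, 0.104, 0.408, and 0.356 at 27°C (log2 change −1.99 ± 0.23, adjusted p = 1.51e-06), and *RHS18* had 13.9, 4.93, 9.52, and 9.24 at 20°C and 2.78, 1.42, 2.70, and 2.25 at 27°C (log2 change −1.88 ± 0.25, adjusted p = 1.14e-05). The groups did not overlap for these. The regulators of root hair fate and growth were not called, *RHD6* with 0.903, 1.18, 1.63, and 1.65 at 20°C and 0.599, 1.22, 0.95, and 1.37 at 27°C (log2 change −0.32 ± 0.23, adjusted p = 0.268) and *RSL4* with a log2 change of −0.89. *RHD6* fell in Col-0, from 1.43 ± 0.292 to 0.352 ± 0.133, and its responses differed (difference 1.16 ± 0.33, adjusted p = 0.032). The list had 11 repressed members without 27°C replicates 3 and 4, 8 without replicates 1 and 2, and 7 with FPKM as deposited. Its summed level was 159.8 to 262 at 20°C and 37.1 to 81.2 at 27°C.

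Casparian strip genes, which mark the endodermis of the root, fell in 4 of 8 cases. *CASP1* had 45.2, 33.4, 46.5, and 47.5 at 20°C and 22.2, 14.3, 16.4, and 17 at 27°C (log2 change −1.30 ± 0.20, adjusted p = 4.2e-05). *CASP4* had 5.07, 6.97, 7.65, and 6.16 at 20°C and 1.62, 1.18, 2.67, and 2.77 at 27°C (log2 change −1.59 ± 0.21, adjusted p = 7.88e-06), and *CASP5* had 11.7, 5.75, 8.70, and 11.2 at 20°C and 4.27, 1.57, 1.77, and 2.38 at 27°C (log2 change −1.85 ± 0.28, adjusted p = 5.14e-05). *CASP2* went from 12.3 ± 2.60 to 5.73 ± 0.987 (log2 change −1.06 ± 0.17, adjusted p = 5.57e-05), and its call was lost without 20°C replicate 1 or 27°C replicate 2 (log2 change −0.97 to −0.96, adjusted p = 0.000297 to 0.000318). All 8 members had a negative log2 change, and the summed level was 96.0 to 129 at 20°C and 41.6 to 69.9 at 27°C. The sums of the root hair and Casparian strip lists were lower at 27°C, as were the uptake genes that follow. Among the warm libraries, replicate 1 was the highest for *CASP1*, *CASP5*, *PRP1*, and *RHS18*. The part of a smaller share of root RNA in the uptake genes was not tested. Without 27°C replicates 3 and 4 the count of repressed Casparian strip genes was 1, and with FPKM as deposited it was 2.

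The iron uptake system fell. Arabidopsis reduces iron at the root surface and imports it through IRT1 under control of the factor FIT. *FRO2* (AT1G01580, TAIR10 chromosome 1, 208995 to 213082, plus strand), the iron reductase gene, had 24.8, 40.8, 29.2, and 33.2 at 20°C and 1.57, 6.59, 7.11, and 5.12 at 27°C (log2 change −2.75 ± 0.42, adjusted p = 0.000131). *IRT1* had 71.8, 112, 84.1, and 93.0 at 20°C and 5.13, 19.8, 28.0, and 18.4 at 27°C (log2 change −2.53 ± 0.43, adjusted p = 0.000343), and its call was lost without 20°C replicate 2, 20°C replicate 3, 20°C replicate 4, or 27°C replicate 4 (log2 change −2.62 to −2.42, adjusted p = 0.00101 to 0.00139). The iron transporter gene *IRT2* had 3.44, 5.14, 6.48, and 5.79 at 20°C and 0.613, 0.336, 0.486, and 0.206 at 27°C (log2 change −3.05 ± 0.30, adjusted p = 3.53e-07), and *NAS2*, a nicotianamine synthase gene, had 10.9, 16.7, 15.67, and 15.3 at 20°C and 1.57, 1.90, 3.04, and 2.16 at 27°C (log2 change −2.64 ± 0.23, adjusted p = 9.81e-08). The regulator *FIT* had 9.92, 15.4, 17, and 18.7 at 20°C and 2.29, 3.44, 6.50, and 4.12 at 27°C (log2 change −1.89 ± 0.29, adjusted p = 6.53e-05). The warm and cool libraries did not overlap in any of these, and replicate 1 was the lowest warm library for *FRO2*, *IRT1*, and *FIT*.

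A single ferritin gene, *FER1*, was induced. *FER1* encodes a plastid ferritin that rises with iron supply and had 87.7, 35.2, 33.0, and 34.7 at 20°C and 275, 286, 224, and 224 at 27°C (log2 change 2.52 ± 0.25, adjusted p = 1.15e-06), with 20°C replicate 1 far above the other cool libraries. Of the other ferritin genes of the list, *FER3* had a log2 change of −0.88 and *FER4* one of 0.66, and neither was called. Of 31 tested members of the list, 11 were repressed and 1 was induced. On deposited FPKM 3 were repressed. *FRO5*, a further iron or copper reductase family gene named after its values were seen, had 1.82, 6.17, 4.81, and 5.14 at 20°C and 0, 0.112, 0.379, and 0.169 at 27°C (log2 change −3.47 ± 0.45, adjusted p = 8.34e-06). The interaction was called for 1 of the 31 members, the copper transporter gene *COPT2*, which fell less than in Col-0 (log2 change −1.22 against −2.45, difference 1.23 ± 0.28, adjusted p = 0.00928).

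Nitrogen uptake genes fell as well. *NRT2.1*, a high-affinity nitrate transporter gene, had 0.942, 1.51, 2.35, and 1.93 at 20°C and 0, 0, 0.241, and 0.0817 at 27°C (log2 change −2.55 ± 0.27, adjusted p = 7.14e-07). *NRT3.1*, its partner protein gene, had 30.5, 33.1, 40.1, and 40.9 at 20°C and 7.75, 10.8, 16.7, and 14.1 at 27°C (log2 change −1.58 ± 0.17, adjusted p = 1.01e-06). *AMT1;1*, an ammonium transporter gene, had 33.3, 51.6, 66.4, and 58.1 at 20°C and 20.2, 21.1, 26.0, and 22.1 at 27°C (log2 change −1.18 ± 0.17, adjusted p = 1.63e-05), and *GLN1;1*, a cytosolic glutamine synthetase gene, had 54.9, 74.3, 69.0, and 78.2 at 20°C and 22.7, 24.9, 37.3, and 35.0 at 27°C (log2 change −1.22 ± 0.14, adjusted p = 1.61e-06). *AMT1;3*, a further ammonium transporter gene, went from 28.6 ± 5.11 to 12.5 ± 4.83 (log2 change −1.25 ± 0.25, adjusted p = 0.000636) and lost its call in 8 of the 16 fits that left out 1 library. The temperatures did not overlap in the first 4 genes, and these 5 of 14 tested members were repressed. *NRT2.1* fell further than in Col-0 (difference −1.31 ± 0.39, adjusted p = 0.0387), while the responses of *NIR1*, a nitrite reductase gene (difference 0.65), and *AMT1;2*, an ammonium transporter gene (difference 1.32), were higher than in Col-0. On deposited FPKM 2 members were repressed.

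Some phosphate and sulfur genes were called, where 4.5% of all genes were induced and 3.35% repressed. Of 15 phosphate starvation genes 2 were repressed, *MGD3*, which makes galactolipids in place of phospholipids, with 1.58, 1.24, 1.21, and 1.36 at 20°C and 0.410, 0.417, 0.410, and 0.388 at 27°C (log2 change −1.28 ± 0.21, adjusted p = 8.09e-05), and *PHT1;4*, a phosphate transporter gene, with 15.3 ± 3.04 to 6.50 ± 2.33 (log2 change −1.25 ± 0.21, adjusted p = 0.000108). *MGD3* did not fall in Col-0, where it went from 4.03 ± 0.859 to 5.91 ± 2.55 (difference −1.74 ± 0.30, adjusted p = 0.00137). Of the 15 members 6 had a lower response in *pif4-2* than in Col-0, against 3.52% of all genes. Of 13 sulfur genes, *SULTR2;1*, a sulfate transporter gene, rose with 5.90, 5.95, 6.37, and 6.2 at 20°C and 40.2, 32.1, 23.9, and 26.8 at 27°C (log2 change 2.26 ± 0.14, adjusted p = 9.94e-10), *APR3*, a sulfate reduction gene, went from 43.6 ± 3.23 to 119 ± 22 (log2 change 1.42 ± 0.13, adjusted p = 8.77e-08), and *BGLU30* fell, from 5.57 ± 1.61 to 0.859 ± 0.368 (log2 change −2.40 ± 0.24, adjusted p = 4.14e-07). At an adjusted p under 0.05 without the fold and level, 8 of the 13 sulfur genes were higher at 27°C. With FPKM as deposited 7 were induced, and in Col-0 8 were.

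**Figure D5:**
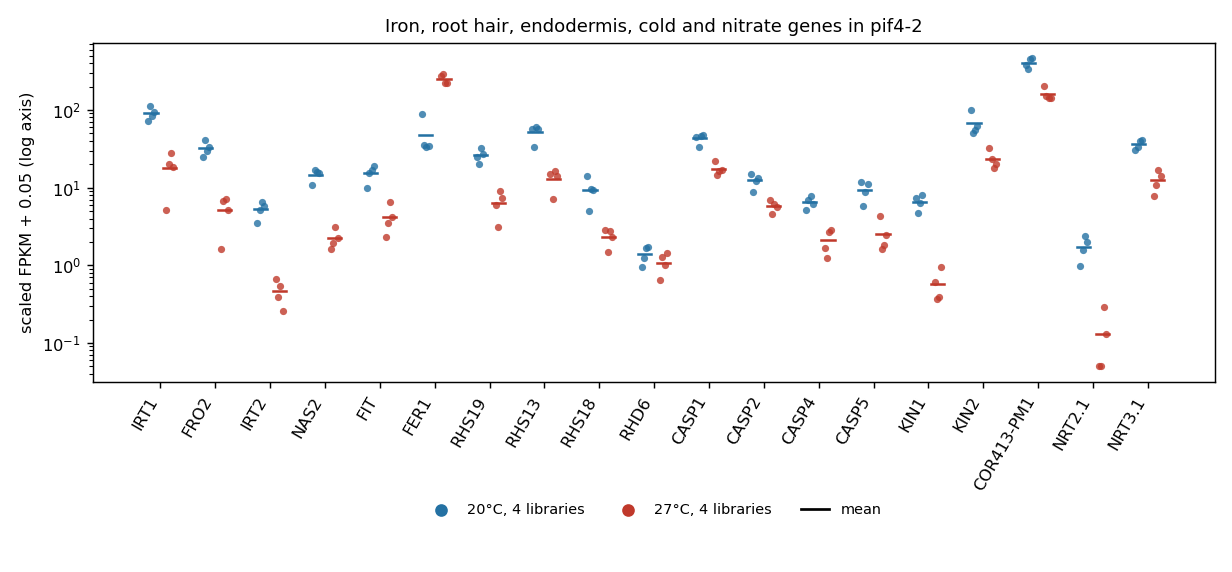
Scaled FPKM plus 0.05 (y axis, log scale) of 19 genes (x axis) of iron, root hairs, endodermis, cold, and nitrate in *pif4-2*, with 4 libraries at 20°C in blue, 4 at 27°C in red, and bars at the group means. The red points lie below the blue points for all of them except *FER1*, which rose, and *RHD6*, where the points overlap.

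Flavonoid synthesis fell. These pigments and sunscreens are made from phenylalanine by way of chalcone synthase. *PAL1*, phenylalanine ammonia-lyase of the first step, had 181, 197, 204, and 213 at 20°C and 57.1, 51.9, 68.9, and 63.9 at 27°C (log2 change −1.72 ± 0.11, adjusted p = 2.28e-09). *F3H*, flavanone 3-hydroxylase, had 45.3, 63.4, 56.5, and 60.6 at 20°C and 7.5, 11.1, 17.3, and 18.4 at 27°C (log2 change −2.11 ± 0.23, adjusted p = 1.82e-06). *FLS1*, flavonol synthase, had 47.1, 48.5, 47.9, and 48.3 at 20°C and 10.2, 19.8, 21.6, and 20.8 at 27°C (log2 change −1.45 ± 0.19, adjusted p = 6.59e-06), and *CHI*, chalcone isomerase, had 30, 37.5, 32.9, and 31.9 at 20°C and 7.15, 12.8, 14.4, and 16.4 at 27°C (log2 change −1.42 ± 0.18, adjusted p = 7.89e-06). The groups did not overlap, and 27°C replicate 1 was the lowest for *F3H*, *FLS1*, and *CHI*. *CHS* itself had 204, 349.8, 468, and 378 at 20°C and 34.9, 75.4, 146, and 137 at 27°C (log2 change −1.97 ± 0.38, adjusted p = 0.000727) and lost its call in 12 of the 16 fits that left out 1 library, with adjusted p up to 0.00292. The highest warm libraries of *CHS* were replicates 3 and 4.

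Of 18 tested flavonoid genes 6 were repressed and 17 had a negative log2 change, with a median of −1.53 in *pif4-2* and −1.50 in Col-0. The count was 9 without 27°C replicates 3 and 4, 4 without replicates 1 and 2, and 2 with FPKM as deposited. Of 17 lignin and xylem wall genes only *PAL1* and *CYP84A1*, ferulate 5-hydroxylase, were repressed, the latter from 104 ± 5.88 to 48.9 ± 2.77 (log2 change −1.09 ± 0.09, adjusted p = 2.99e-08).

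Single genes of light stress and chlorophyll synthesis fell, and most photosynthesis genes were not called. *ELIP1* and *ELIP2* encode early light-induced proteins of the thylakoid. *ELIP1* had 16.6, 35.6, 68.8, and 71.5 at 20°C and 2.22, 4.07, 4.58, and 4.50 at 27°C (log2 change −3.39 ± 0.38, adjusted p = 7.36e-06), and *ELIP2* had 23.3, 21.8, 57.4, and 48.8 at 20°C and 3.04, 3.61, 5.53, and 3.98 at 27°C (log2 change −3.05 ± 0.28, adjusted p = 4.22e-07). The cool libraries of *ELIP1* differed widely and still lay above all warm ones. No other of the 32 tested nuclear genes for light harvesting, photosystems, and Rubisco was called, and their median log2 change was −0.13. *PORB*, a protochlorophyllide reductase gene, was the only one of 11 chlorophyll synthesis genes called, with 465, 414, 359, and 404 at 20°C and 199, 212, 161, and 162 at 27°C (log2 change −1.16 ± 0.12, adjusted p = 3.39e-07), and it fell more than in Col-0 (difference −0.57 ± 0.16, adjusted p = 0.0352).

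More cell wall loosening genes were repressed than induced, and most were not called. Expansins and xyloglucan endotransglucosylases (XTHs) loosen the wall during growth. Over all genes 4.5% were induced and 3.35% repressed. Of 13 tested alpha expansins outside root hairs 4 were repressed, *EXPA17*, *EXPA11*, *EXPA9*, and *EXPA16*. *EXPA17* had 1.71, 2.1, 4.34, and 3.88 at 20°C and 0.0599, 0.244, 0.566, and 0.576 at 27°C (log2 change −2.43 ± 0.31, adjusted p = 5.83e-06), and *EXPA11* had 38.5, 19.7, 26.6, and 26.7 at 20°C and 11.7, 12.2, 8.12, and 8.91 at 27°C (log2 change −1.40 ± 0.17, adjusted p = 2.91e-06). *EXPA9* had a log2 change of −1.11, and *EXPA16* one of −1.06, a call lost without 20°C replicate 4 or 27°C replicate 2 (log2 change −0.99 to −0.92, adjusted p = 0.000249 to 0.000339). Of 23 tested XTHs 6 were repressed, among them *XTH20*, with 14.6, 13.3, 16.7, and 15.73 at 20°C and 2.2, 2.66, 4.86, and 3.88 at 27°C (log2 change −2.13 ± 0.27, adjusted p = 8.19e-06), and *XTH12*, with 14.6, 8.19, 17.2, and 13.8 at 20°C and 3.39, 1.34, 4.04, and 3.41 at 27°C (log2 change −2.10 ± 0.26, adjusted p = 5.26e-06). *XTH24* rose, with 41.6, 28.7, 40.1, and 42.5 at 20°C and 204, 106, 76.2, and 73.4 at 27°C (log2 change 1.47 ± 0.28, adjusted p = 0.000544), and its call was lost without 20°C replicate 1, 20°C replicate 2, 20°C replicate 3, 20°C replicate 4, or 27°C replicate 2 (log2 change 1.34 to 1.52, adjusted p = 0.00126 to 0.00235). *XTH24* was the only induced gene of the 23 XTHs, a share near that of all genes. With FPKM as deposited the directions were even, with 1 expansin and 3 XTHs repressed and as many induced.

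The auxin genes that the study used as PIF4 targets did not rise. *YUC8* (AT4G28720, TAIR10 chromosome 4, 14192569 to 14194302, plus strand), an auxin synthesis gene, had 2.56, 1.94, 1.85, and 2.46 at 20°C and 0.986, 0.579, 0.911, and 1.09 at 27°C, a fall (log2 change −1.11 ± 0.18, adjusted p = 4.98e-05) whose call was lost without 27°C replicate 2 (log2 change −0.97, adjusted p = 0.000225), while it went from 2.09 ± 0.431 to 3.70 ± 0.470 in Col-0 (difference −1.88 ± 0.25, adjusted p = 0.000171). *IAA19*, an auxin response repressor gene, had 4.87, 4.12, 4.23, and 2.87 at 20°C and 3.91, 2.98, 4.36, and 3.13 at 27°C, and the groups overlapped (log2 change −0.15, adjusted p = 0.443). *IAA29* was under 0.5 scaled FPKM in all 8 libraries. *ST2A*, a sulfotransferase gene acting on a jasmonate, had 0.263, 0.597, 0.819, and 0.459 at 20°C and 0.480, 0.564, 0.698, and 0.420 at 27°C, against 0.720 ± 0.224 to 7.54 ± 3.173 in Col-0 (difference −2.89 ± 0.38, adjusted p = 0.000151). *ARGOS*, an organ size gene, and *APD7*, a clade D phosphatase gene, were not called, with log2 changes of −0.50 and −0.35 against 1.86 and 1.57 in Col-0.

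A few auxin-responsive genes were called. *IAA4* had 10.8, 9.53, 9.31, and 7.15 at 20°C and 18.3, 21.3, 28.5, and 30.3 at 27°C (log2 change 1.38 ± 0.17, adjusted p = 4.81e-06), and *IAA2* had 10.6, 6.91, 7.72, and 7.34 at 20°C and 15.2, 13.5, 25.7, and 20.8 at 27°C (log2 change 1.16 ± 0.17, adjusted p = 2.1e-05), a call lost without 27°C replicate 3 (log2 change 0.99, adjusted p = 5.73e-05). They were 2 of 18 tested Aux/IAA genes, against 4.5% of all genes, and 7 of the 18 had a lower response than in Col-0, against 3.52%. Of 34 tested SAUR genes, small auxin-induced transcripts of elongating tissue, *SAUR15* and *SAUR66* were induced and *SAUR76* was repressed, although 26 had a positive log2 change and their median was 0.51 against 1.44 in Col-0. These counts lie near the shares of all genes called, 4.5% induced and 3.35% repressed. *SAUR66* went from 3.31 ± 1.03 to 7.85 ± 1.17 (log2 change 1.23 ± 0.21, adjusted p = 9.85e-05), a call lost without 20°C replicate 2 (log2 change 0.99, adjusted p = 0.000164). *SAUR15* went from 1.73 ± 0.680 to 3.59 ± 0.379 and lost its call without 20°C replicate 3, 20°C replicate 4, 27°C replicate 1, 27°C replicate 3, or 27°C replicate 4 (log2 change 0.82 to 1.0, adjusted p = 0.00152 to 0.00238). *SAUR76* fell from 3.39 ± 1.16 to 0.876 ± 0.362 (log2 change −1.70 ± 0.28, adjusted p = 7.73e-05). *SAUR1* had 2.24, 0.847, 2.12, and 1.98 at 20°C and 1.53, 1.64, 1.85, and 2.43 at 27°C and was not called, against 1.21 ± 0.417 to 8.84 ± 2.21 in Col-0 (difference −2.57 ± 0.37, adjusted p = 0.000364). With FPKM as deposited, 13 SAUR genes were induced. *GH3.3*, whose product conjugates auxin to amino acids, fell, with 6.80, 11.2, 14.1, and 11 at 20°C and 4.0, 3.28, 4.16, and 3.91 at 27°C (log2 change −1.39 ± 0.15, adjusted p = 9.28e-07), and in Col-0 it went from 7.09 ± 0.577 to 9.95 ± 0.596 (difference −1.87 ± 0.22, adjusted p = 4.29e-05).

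Other growth regulators changed in both directions. *PKS2*, a phytochrome kinase substrate gene, had 5.26, 4.82, 5.39, and 6.69 at 20°C and 20.9, 21.4, 17.35, and 17.696 at 27°C (log2 change 1.76 ± 0.15, adjusted p = 7.64e-08), and its log2 change in Col-0 was 1.74. *PIF5*, a close relative of *PIF4*, went from 10.6 ± 1.09 to 18.8 ± 4.43, less than 2-fold (log2 change 0.79 ± 0.14, adjusted p = 0.000141), and it rose more in Col-0, from 7.79 ± 1.15 to 24.0 ± 1.69 (difference −0.81 ± 0.20, adjusted p = 0.0142). *PRE3*, a small helix-loop-helix growth promoter gene, fell, with 19.1, 12.7, 15.75, and 15.6 at 20°C and 3.63, 4.11, 5.34, and 6.21 at 27°C (log2 change −1.68 ± 0.20, adjusted p = 2.6e-06). *GA3OX1*, which makes active gibberellin, had 5.69, 10.7, 10, and 7.32 at 20°C and 1.43, 2.59, 3.56, and 3.32 at 27°C (log2 change −1.57 ± 0.22, adjusted p = 1.81e-05). In Col-0 the log2 changes were −2.01 for *PRE3* and −0.70 for *GA3OX1*, and no difference was called for either (adjusted p = 0.499 and 0.0903). In *pif4-2* the temperatures did not overlap in any of these 4 genes.

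Clock genes were mostly not called, and 3 of 18 were repressed against 3.35% of all genes. Of 18 tested, *PRR5* fell, with 13.4, 14, 9.38, and 10.7 at 20°C and 5.80, 3.55, 2.22, and 2.95 at 27°C (log2 change −1.71 ± 0.24, adjusted p = 1.81e-05), and *FKF1* and *TOC1* fell with log2 changes of −1.71 and −1.07, both calls lost when single libraries were left out. *FKF1* lost it without 20°C replicate 1, 20°C replicate 2, 27°C replicate 3, or 27°C replicate 4 (log2 change −1.65 to −1.49, adjusted p = 0.00124 to 0.00142). *TOC1* lost it without 20°C replicate 1, 20°C replicate 2, or 27°C replicate 3 (log2 change −0.98 to −0.94, adjusted p = 0.0002 to 0.000237). All seedlings were grown in continuous light.

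Several large differences between the genotypes lay outside the lists. *ADH1*, alcohol dehydrogenase, had 0.660, 2.0, 1.52, and 1.36 at 20°C and 5.28, 10.9, 17.9, and 11.2 at 27°C (log2 change 2.78 ± 0.30, adjusted p = 1.4e-06), while in Col-0 it went from 1.89 ± 0.249 to 2.01 ± 0.574 (difference 2.73 ± 0.43, adjusted p = 0.000807). *GSTF14*, a glutathione transferase gene, had 3.94, 3.13, 3.68, and 2.98 at 20°C and 5.87, 22.6, 25.6, and 22.1 at 27°C (log2 change 2.2 ± 0.32, adjusted p = 5.44e-05), with 27°C replicate 1 low, and went from 6.64 ± 0.534 to 4.71 ± 0.570 in Col-0 (difference 2.68 ± 0.46, adjusted p = 0.00213). The call of *GSTF14* in *pif4-2* was lost with voom and with the *pif4-2* libraries alone. In both genes the temperatures did not overlap. *AZI1*, a lipid transfer protein gene of systemic defence, fell with 78.9, 96.3, 116, and 93.5 at 20°C and 5.63, 14.1, 16.2, and 16.3 at 27°C (log2 change −2.95 ± 0.26, adjusted p = 2.87e-07) and not in Col-0, at 104 ± 9.47 to 84.8 ± 15.8 (difference −2.64 ± 0.36, adjusted p = 0.000388). *PME16*, a pectin methylesterase gene, had 4.47, 2.89, 2.87, and 3.23 at 20°C and 4.08, 3.3, 3.13, and 2.84 at 27°C and was not called, against 2.82 ± 0.863 to 25.9 ± 8.18 in Col-0 (difference −3.08 ± 0.30, adjusted p = 1.91e-05). *ATHB-52*, a homeodomain factor gene, went from 2.14 ± 0.737 to 0.999 ± 0.351 and from 0.801 ± 0.288 to 4.41 ± 0.129 in Col-0 (difference −3.11 ± 0.35, adjusted p = 3.51e-05). *NMT1_1* (AT3G18000), a phosphoethanolamine methyltransferase gene named after its values were seen, had 62.4, 63.6, 72.3, and 74.5 at 20°C and 9.94, 9.65, 8.50, and 9.23 at 27°C (log2 change −2.83 ± 0.12, adjusted p = 1.12e-11) and fell less in Col-0, from 58.2 ± 9.67 to 32.7 ± 4.49 (difference −2.01 ± 0.17, adjusted p = 3.75e-06).

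FPKM of plastid-encoded genes fell, with a wide spread between libraries. The libraries were poly(A)-selected, so these values need not follow the levels of plastid transcripts. Of 82 tested plastid-encoded genes 32 were repressed and all 82 had a negative log2 change, with a median of −2.92. *ATPH* (ATCG00140), a subunit of the plastid ATP synthase, had 695, 642, 429, and 291 at 20°C and 112, 37.8, 4.59, and 7.24 at 27°C (log2 change −4.61 ± 0.80, adjusted p = 0.000428). Replicates 3 and 4 were the lowest of its warm libraries by far, and its call was lost without 20°C replicate 1, 20°C replicate 2, 20°C replicate 3, or 27°C replicate 4 (log2 change −4.67 to −4.14, adjusted p = 0.00139 to 0.00173). *ATPE* (ATCG00470), a further subunit, had 492, 552, 391, and 209 at 20°C and 98.4, 36.7, 10, and 14 at 27°C (log2 change −3.84 ± 0.59, adjusted p = 0.000181). The count of 32 was 6 without 27°C replicates 3 and 4, 65 without replicates 1 and 2, and 3 with the *pif4-2* libraries alone. In Col-0 the median log2 change of the plastid-encoded genes was −1.52 and 2 were repressed. No difference between the genotypes was called for any of them. The share of fragments in nuclear genes was 68.4 to 86.0% at 20°C and 91.6 to 96.1% at 27°C. It did not track the plastid sums library by library. At 20°C, *pif4-2* replicate 1 had 68.4% with a plastid sum of 10821 deposited FPKM, and replicate 2 had 80.4% with 15825. The part of the nuclear share in the plastid values was not tested.

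Markers of seed and guard cells were also read. Of 14 seed storage and oleosin genes only 3 passed the filter on low values, all 3 with a positive log2 change (median 1.2007). The filter asks for at least 0.5 FPKM in at least 4 libraries, so a gene low at 20°C enters through its warm values. The summed level of the 14 was 2.11 to 6.56 at 20°C and 5.76 to 15.1 at 27°C. *PER1*, a seed peroxiredoxin gene, was called, with 0.552, 0.418, 0.550, and 0.257 at 20°C and 5.90, 4.1, 2.77, and 2.01 at 27°C (log2 change 2.43 ± 0.38, adjusted p = 5.33e-05). Its cool values lay near or below the filter, so its direction adds no support for the list. Its call was lost without 27°C replicates 1 and 2 (log2 change 1.93, limma adjusted p = 0.00176) and with voom. None of 6 guard cell and stomatal lineage genes was called by limma or by voom, 1 was higher and 3 were lower at an unadjusted p under 0.05 in limma, and their sums were 26.4 to 28.4 at 20°C and 22.8 to 23.9 at 27°C.

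The G-box CACGTG, the element PIF4 binds, was in the 300-base start window of 11.9% of the 873 genes still induced in *pif4-2*, of 8.79% of 603 repressed nuclear genes, and of 8.91% of all 19265 tested nuclear genes with a window. These shares describe letters in the window and say nothing of binding.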

How the data were processed

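The 32 libraries were stranded poly(A)-selected RNA-seq of Arabidopsis seedlings, of which the 16 of *pif4-2* and Col-0 entered the fit. The deposited values are FPKM per gene, made by the authors in CLC Genomics Workbench on TAIR10 with Araport11 genes, and fold changes and p-values of the authors' own comparisons were not used. Multiplied by exon length and divided by the value of 1 fragment, 99.2 to 99.3% of values up to 1000 fragments came out whole within 0.05, and these recovered fragments gave the depth per library (11911240 to 15922756 in these 4 groups) and an alternative test. Of the 27655 genes 27445 were nuclear, and 27438 had the same coordinates in RefSeq TAIR10.1. No column was without a sample.

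Libraries were divided by TMM factors (trim 30% of M and 5% of A values) over 16 libraries, and genes with at least 0.5 FPKM in at least 4 of them were kept. A gene near 0 at 1 temperature passes only through the other, which fixes the sign of its change. limma 3.58.1 in R 4.3.3 (with trend and robust variance, statmod 1.5.0) was fitted to log2(FPKM + 0.25) over 4 group means, and the interaction with genotype was called at a Benjamini-Hochberg adjusted p under 0.05. limma adjusted p-values were over all 19417 genes. Single comparisons of *PIF4* used exact permutation tests in SciPy 1.17.1. The steps were tested on simulated data. The labels give separate biological replicates and no batch. Within each *pif4-2* group no pair of libraries agreed within sampling noise.

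The members and the 34 gene lists (640 entries, 639 in the table) were chosen with earlier results of these data known. Named genes were the study's targets, the 15 largest rises and falls with a symbol, up to 6 called and 3 other members of each list, the 8 largest differences from Col-0 in each direction, the 10 most abundant called genes in each direction, and members of counts of at most 5. That rule gave 287 genes, and the text gives the values of a selection of them. Alternatives were other scalings, pseudocounts, filters, thresholds, libraries, weights, the replicate number as a block, and voom on recovered fragments.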

Additional observations from a re-analysis of the deposited data

Results flagged for a closer look

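In 26 of 364 groups of 4 libraries looked at (182 named genes at both temperatures), 1 library lay far from the other 3, where chance alone gives about 5% of groups. The number in parentheses is the gap to the nearest other library as a share of the group's range, with a critical value of 0.829 for 4 libraries. At 20°C, replicate 1 was the highest library for *GOLS1* (0.86) and *FER1* (0.96). The lowest value at 20°C was in replicate 1 for *MED37C* (0.947), *APR3* (0.834), and *TT8* (0.92). At 20°C, replicate 2 was the highest library for *BCAT4* (0.986), *CYP79F1* (0.879), and *CORI3* (0.865). The lowest value at 20°C was in replicate 2 for *APD7* (0.858) and *CASP1* (0.834). At 20°C, replicate 4 was the highest library for *HSP17.6II* (1.0) and *HSP17.6C* (1.0). The highest value at 27°C was in replicate 1 for *CYP81D11* (0.859) and *COR413-PM1* (0.854). At 27°C, replicate 1 was the lowest library for *FMOGS-OX3* (0.829), *TT8* (0.858), *FLS1* (0.84), *GER3* (0.885), *RPL10A* (0.957), *RPL8A* (0.921), and *RPS14B* (0.927). The lowest value at 27°C was in replicate 2 for *UGT75B1* (0.834), *SAUR15* (0.87), and *AIR1* (0.843). At 27°C, replicate 4 was the highest library for *CORI3* (0.856) and *ATHB-52* (0.843).

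The warm response differed between *pif4-2* and Col-0 (limma interaction, adjusted p under 0.05) for 60 of the 182 named genes looked at. Of these responses, 34 were higher and 26 lower in *pif4-2*, against 6.01% and 3.52% of all tested genes. Some of the genes were named for the size of this difference or after their values were seen. The counts therefore describe these genes and are no independent support. Values are log2 change in *pif4-2* minus log2 change in Col-0. The largest positive differences were *UGT74E2* 3.64, *ANNAT7* 2.85, *AKR4C9* 2.78, *cPT4* 2.77, *ADH1* 2.73, *GSTF14* 2.68, *CYP79F1* 2.63, *AIR1* 2.63, *UGT75B1* 2.53, and *AT4G22517* 2.53. Smaller positive differences were *UGT73C1* 1.91, *MAM1* 1.89, *AT3G05727* 1.89, *CYP81D11* 1.78, *CYP72A8* 1.7, *CYP83A1* 1.63, *BCAT4* 1.62, *AKR4C8* 1.59, *FMOGS-OX1* 1.53, *MBF1C* 1.48, and *GSTU20* 1.45. The rest of the positive ones were *HSP17.8* 1.43, *ACO1* 1.35, *LTI30* 1.35, *HSP90-1* 1.31, *AT1G14130* 1.28, *FMOGS-OX3* 1.25, *COPT2* 1.23, *RHD6* 1.16, *NSP3* 1.03, *JAZ9* 0.97, *ESP* 0.967, *DREB2A* 0.874, and *GSTU19* 0.766. The largest negative differences were *ATHB-52* −3.11, *PME16* −3.08, *ST2A* −2.89, *IPS1* −2.68, *AZI1* −2.64, *MAH1* −2.61, *GPT2* −2.6, *SAUR1* −2.57, *FAR1* −2.49, *ARGOS* −2.36, and *NMT1_1* −2.01. The other negative differences were *IAA29* −1.93, *APD7* −1.92, *YUC8* −1.88, *GH3.3* −1.87, *IAA19* −1.84, *MGD3* −1.74, *PIF4* −1.6, *NRT2.1* −1.31, *EXPA16* −1.23, *MYB51* −1.21, *KCS12* −1.12, *ESM1* −0.872, *PIF5* −0.808, *EXPA11* −0.769, and *PORB* −0.57. *IPS1*, *MAH1*, and *IAA29* passed the filter on low values only through Col-0 libraries, so the sign of their differences adds no support.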

How the results depend on the processing

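With FPKM as deposited (no scaling) 2568 genes were induced, 207 repressed, and 566 had a higher response than in Col-0. A pseudocount of 1 FPKM gave 553 induced genes. Fitting all 32 libraries left 308 higher and 188 lower responses, and library weights gave 2812 and 1979. At an adjusted p under 0.001 with no fold or level, 2149 and 2179 genes rose and fell, and at that threshold 103 and 72 responses differed. In 2 alternatives chosen after seeing the data, higher and lower responses numbered 615 and 429 without 27°C replicates 3 and 4, and 2099 and 1629 without replicates 1 and 2. The cause of these shifts was not tested.

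Leaving out 1 of the 16 libraries gave 740 to 945 induced and 540 to 653 repressed genes, 789 to 1686 higher responses, and 413 to 1023 lower ones. The change of deposited *PIF4* FPKM in *pif4-2* was small and turned from positive to negative after scaling (−1.651 FPKM), without 20°C replicate 1 (−0.318), without 27°C replicate 1 (−0.229), and without 27°C replicate 2 (−0.277), over a range of −0.318 to 0.595 when 1 library was left out. Over all pairs of a named gene and an alternative, the call was lost in 264, gained in 19, and stayed on its side of the threshold in 5154. With voom on recovered fragments, the calls of *HSP17.4*, *VSP1*, *MGD3*, *SAUR15*, *PER1*, *GSTF14*, *FRO5*, and AT4G22505 were lost.

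With the replicate block, 859 genes were induced and 676 repressed, of which 838 and 641 were shared with the fit without it. Same-numbered *pif4-2* libraries at both temperatures correlated at 0.0117 to 0.163 in their deviations, not all above 0.1, and 20°C replicate 4 correlated best with 27°C replicate 3 (0.225), so the numbers were not taken as pairs.

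Depth limits genes near 1 FPKM most, and values at 0 give no fold. FPKM are relative, so a shift of most transcripts would not be seen, and whole seedlings mix organs. With 4 replicates a group, missing calls do not show equal levels.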

Other observations

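Ribosomal protein genes sat mostly below the median gene. Of 253 tested nuclear genes with an RPL, RPS, or RPP symbol, a group made after values were seen and without 14 disease resistance genes of like symbols, 231 had a negative log2 change in *pif4-2*, with a median of −0.614, and 42 were repressed (3.35% of all tested genes were). In Col-0 the median was −0.608 and 29 were repressed, and the responses of 2 of them differed between the genotypes, *RPS11B* (log2 difference −0.64) and *RPS19* (0.79). With FPKM as deposited the median was −0.147 and 3 were repressed. *RPL8A* had scaled FPKM of 1158, 955, 1314, and 1384 at 20°C and 444, 559, 569, and 566 at 27°C (log2 change −1.16 ± 0.12, adjusted p = 3.63e-07), and *RPS14B*, with 1424, 1024, 1285, and 1291 at 20°C and 395, 507, 499, and 499 at 27°C, had its lowest warm value in the same library, replicate 1 (log2 change −1.40 ± 0.12, adjusted p = 4.72e-08).

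Further genes named by the rule had responses that differed from Col-0. *ANNAT7*, an annexin gene, went from 1.02 ± 0.586 to 2.26 ± 0.424 in *pif4-2* and from 1.98 ± 0.929 to 0.383 ± 0.141 in Col-0 (difference 2.85 ± 0.42, adjusted p = 0.000385). *AIR1*, a cell wall protein gene induced by auxin in roots, went from 15.9 ± 1.92 to 39.1 ± 8.26 against 9.83 ± 1.46 to 3.95 ± 1.76 (difference 2.63 ± 0.36, adjusted p = 0.00039). *GPT2*, a plastid glucose 6-phosphate transporter gene, went from 0.852 ± 0.496 to 0.217 ± 0.139 against 2.13 ± 0.901 to 6.15 ± 1.26 (difference −2.60 ± 0.53, adjusted p = 0.00486). *IPS1*, a noncoding transcript of phosphate starvation, went from 0.226 ± 0.0913 to 0.188 ± 0.155 against 0.339 ± 0.223 to 3.39 ± 2.07 (difference −2.68 ± 0.56, adjusted p = 0.00515). With at most 3 fragments in a *pif4-2* library, *IPS1* passed the filter on low values only through Col-0. The sign of its difference therefore adds no support. *ACO1*, an ethylene synthesis gene, went from 1.97 ± 0.145 to 4.75 ± 1.75 against 1.17 ± 0.151 to 0.941 ± 0.171 (difference 1.35 ± 0.30, adjusted p = 0.00756).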
